A study of Mus musculus with 4 samples.

Results

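The genes of the NSL complex were examined for Foxr2 binding sites in a murine brain tumor line. They were taken as Kansl1, Kansl1l, Kansl2, Kansl3, Mcrs1, Phf20, Kat8, Wdr5 and Hcfc1, 9 of 21938 protein-coding genes on the assembled chromosomes. Every peak that touched a gene or its flanks of 10 kb was counted, in GRCm38 (mm10) with GENCODE release M21. The genes were selected on the strength of the Kansl2 site in these same libraries, so the values that follow are a description, and no test was run on them.

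Foxr2 was profiled by CUT&RUN, in which an antibody directs a nuclease to a protein on chromatin and the released DNA is sequenced. The Foxr2 p53LOF group comprised 2 replicates of a neurosphere line of C57BL/6J strain, derived from a tumor made by in utero electroporation (IUE) of a vector with V5-tagged FOXR2 together with p53 loss of function. The V5 control group comprised 2 replicates of a C57BL/6J line from a different IUE model, genotype H3.3G34R, which lacks the tag and was treated with the same V5 antibody. The tagged protein came from the electroporated vector and not from the endogenous gene, the controls differ from the Foxr2 p53LOF line in genotype as well as in the tag, and no source used here says that the replicates are separate cultures. The deposited lists held 31909 and 38580 peaks for Foxr2 p53LOF replicates 1 and 2, and 308 and 124 for the controls. Both Foxr2 p53LOF lists held a peak over the coding sequence of Foxr2, with folds of 5.74, under the minimum of 6 used below, and 6.24. Neither control list did, which is weak as a check of the labels because the control lists are short.

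The NSL (nonspecific lethal) complex is a chromatin regulator that binds the promoters of broadly expressed genes and acetylates histone H4 there. Its enzyme, the MYST acetyltransferase encoded by Kat8, is also the enzyme of the MSL complex, and the 2 complexes use it at different targets. Several NSL subunits also act elsewhere. WDR5 serves the SET1 and MLL methyltransferases, and HCF-1, encoded by Hcfc1, is a co-regulator carried to promoters by many transcription factors.

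Each of the 9 genes had a Foxr2 binding site within 1 kb of a start of its own, beside 39.2% of all protein-coding genes. Kansl2, which encodes a noncatalytic subunit, held the highest of them, with a fold of 59.6 in replicate 1 and 74.2 in replicate 2. Hcfc1, Phf20, Kansl1l, Kansl1, Mcrs1 and Wdr5 formed a middle group with lower folds from 14.6 to 19.9, and Kat8 and Kansl3 were lowest, at 8.84 and 6.63. A fold is the number of fragments at the summit of a peak plus 1, divided by the library's background plus 1, as MACS2 writes it, and lower fold means the lower of the 2 replicates' values. A binding site is a stretch covered by peaks of both replicates, each with a fold and a −log10 q over 6, shorter than 10000 bp and free of control peaks.

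Sequences around the starts of 7 of the genes are given first. They were read from RefSeq's GRCm38.p6 on the strand of the gene, 5′ to 3′, and offsets count from the RefSeq start, with the start itself at 0. All 9 genes matched RefSeq promoters, with 13 starts among them. Kansl2 is shown because its site is the highest. The capitals in the upstream stretch mark a GC box (GGGCGG or its complement) and 2 CCAAT boxes, and those in the 2 short stretches mark AAGATGGCG, the core of the motif of the zinc-finger factor YY1, 31 bases past the start and farther in within exon 1.
Kansl2 upstream, chr15:98534270-98534399: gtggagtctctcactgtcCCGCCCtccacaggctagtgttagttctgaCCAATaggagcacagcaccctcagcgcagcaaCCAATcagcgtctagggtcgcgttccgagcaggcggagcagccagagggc
Kansl2 first YY1 copy, chr15:98534220-98534248: tgggggaggtAAGATGGCGccgtgccggg
Kansl2 second YY1 copy, chr15:98534064-98534092: gccgtgggacAAGATGGCGcttgtaggac
Hcfc1, the second highest, is shown for 6 copies of the same letters, again in capitals, and each line gives the offset at which a copy begins.
Hcfc1 copy at -927, chrX:73967266-73967294: gggaagtggcAAGATGGCGactcccagag
Hcfc1 copy at -619, chrX:73966958-73966986: ttcttcacacAAGATGGCGgctcccaggg
Hcfc1 copy at -389, chrX:73966728-73966756: agctagtctcAAGATGGCGgctcccaggg
Hcfc1 copy at -168, chrX:73966507-73966535: ggacggtttcAAGATGGCGgcttccacaa
Hcfc1 copy at 24, chrX:73966315-73966343: gaggcggctcAAGATGGCGgctcccagag
Hcfc1 copy at 208, chrX:73966131-73966159: gaggatagttAAGATGGCGgcctccatgg
The ETS core CCGGAAG, the letters bound by ETS factors, lies in the sites of Mcrs1, Kat8, Wdr5 and Hcfc1 and, not shown, Kansl2, and is given in capitals, as CTTCCGG where it is on the other strand.
Mcrs1, chr15:99251941-99252021: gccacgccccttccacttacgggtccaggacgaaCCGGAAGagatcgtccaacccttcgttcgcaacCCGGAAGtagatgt
Kat8, chr7:127912457-127912537: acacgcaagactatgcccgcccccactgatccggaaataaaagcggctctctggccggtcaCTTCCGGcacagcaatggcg
Wdr5, chr2:27514847-27514881: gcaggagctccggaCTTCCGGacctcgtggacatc
Hcfc1 upstream, chrX:73966423-73966462: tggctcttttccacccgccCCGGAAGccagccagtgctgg
Kansl1 is shown at both of its bound starts, with GC boxes and CCAAT boxes in capitals, and Kansl3, with the lowest site, has none of the searched letters in the stretch shown, which its site did not reach.
Kansl1 internal start, chr11:104442292-104442461: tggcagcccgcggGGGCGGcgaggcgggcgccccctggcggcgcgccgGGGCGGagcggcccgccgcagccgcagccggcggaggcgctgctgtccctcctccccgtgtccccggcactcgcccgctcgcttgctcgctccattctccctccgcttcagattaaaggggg
Kansl1 outer start, chr11:104469444-104469563: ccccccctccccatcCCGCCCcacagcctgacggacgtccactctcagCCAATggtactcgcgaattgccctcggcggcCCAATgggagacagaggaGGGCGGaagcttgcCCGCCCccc
Kansl3 upstream, chr1:36369182-36369311: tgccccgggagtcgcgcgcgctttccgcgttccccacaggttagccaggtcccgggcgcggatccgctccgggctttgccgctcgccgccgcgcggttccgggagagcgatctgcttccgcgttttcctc

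All 9 genes had a site in the gene region, beside 50.0% of all protein-coding genes, and, as given above, all 9 had one at a start of their own. A site with a fold over 10 in both replicates was found at 7 of the 9, beside 27.8%, the exceptions being Kat8 and Kansl3. Before any filter, all 9 had a peak in each replicate, beside 66.2% of genes in replicate 1 and 66.9% in replicate 2. The lists held 32 and 33 peaks in the 9 gene regions, of which 17 in each replicate passed the filters. They formed 16 sites, 10 at the genes' own starts and 6 elsewhere. Neither control replicate had a peak in any of the 9 regions, beside 0.524% and 0.260% of genes with one. The control lists are so short that 0 of 9 is close to what most genes show. The nearest control peaks lay 0.298 Mb from Mcrs1, 0.410 Mb from Kansl2 and 0.413 Mb from Kansl3, all in control replicate 1, and at least 2.59 Mb from the other genes.

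**Figure D1:**
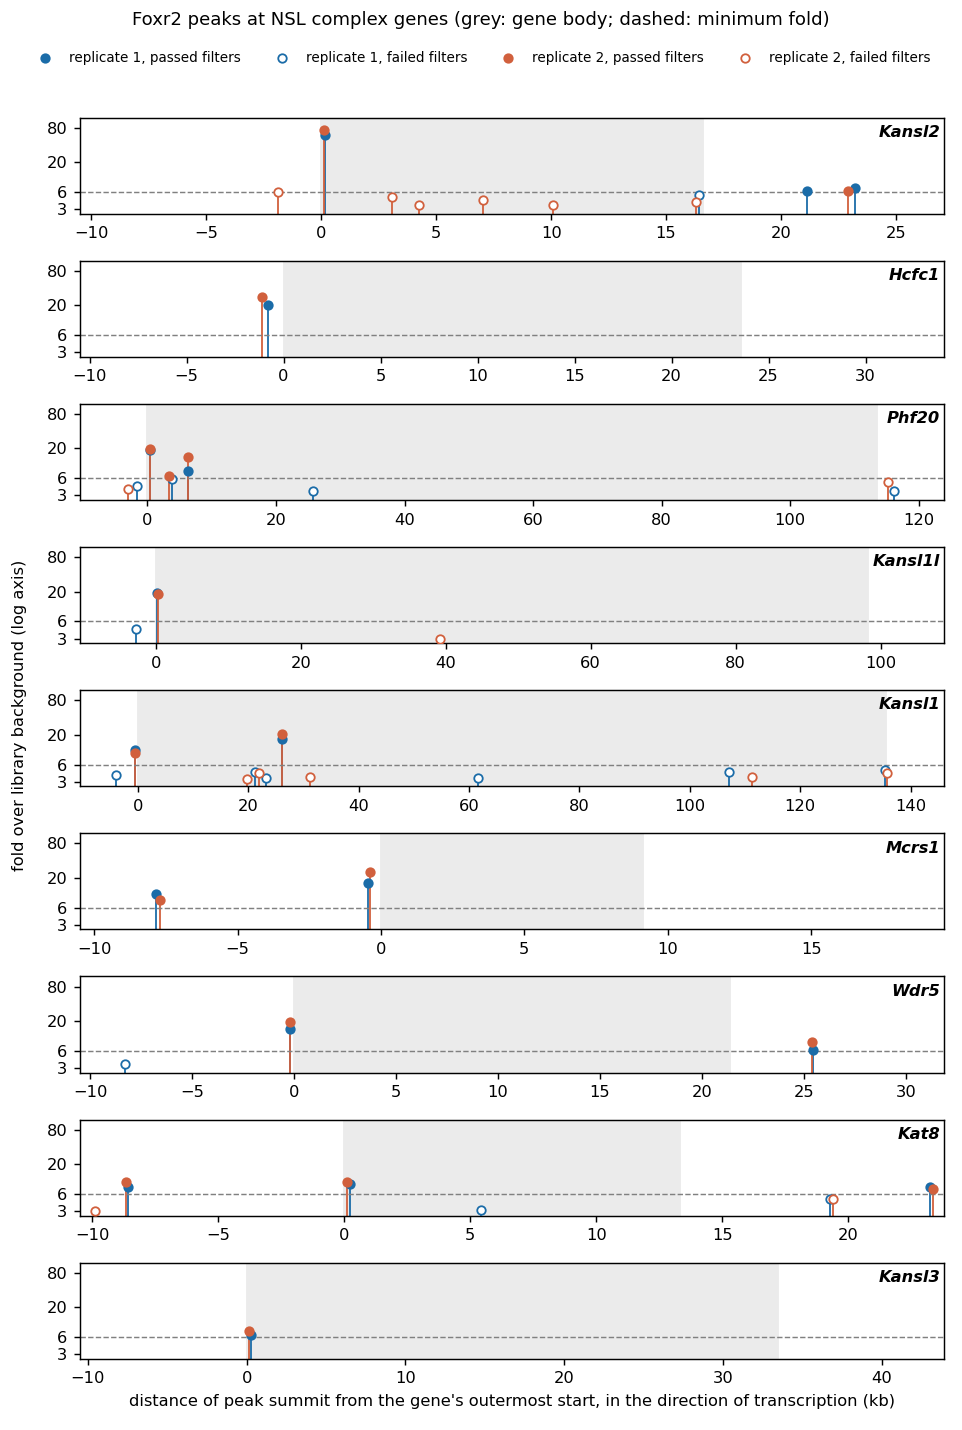
Every Foxr2 p53LOF peak in the 9 gene regions, plotted by the distance of its summit from the outermost start of the gene (kb, in the direction of transcription) and its fold (log axis), with filled points for peaks that passed the filters, open points for those that failed and grey for the gene body. The highest peaks stand at the starts, except at Kansl1, where the highest is inside the gene, and at Kat8 in replicate 2, where the peak at the Bckdk start has the same fold of 9.53. Hcfc1 and Kansl3 have 1 peak in each replicate.

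Kansl2 encodes a subunit that contacts WDR5 within the complex. Its site ran from chr15:98531955-98535109, and its fold was 59.6 in replicate 1, from 134 fragments at the summit, and 74.2 in replicate 2, from 225. The 95% exact Poisson intervals, which cover counting error only here and throughout, were 50.0 to 70.6 and 64.9 to 84.6. Its lower fold was 2.99 times that of Hcfc1, the next of the 9, on the value that the genes were selected on. It ranked 4 of 11943 sites on the assembled chromosomes and 3 of the 7809 within 1 kb of a start. The 2 summits lay 144 and 84 bp inside the start, 60 bp from each other, in the untranslated part of exon 1. The second YY1 copy lay 22 bp from the replicate 1 summit and 82 bp from the replicate 2 summit, and the first lay 134 and 74 bp away, so that the copies flanked the summits in both replicates. A second, low site lay downstream of the gene, chr15:98510216-98511446, with folds of 7.07 and 6.24. Around exon 10, at the other end of the gene, peaks with folds of 5.30 and 3.94 stayed under the minimum. Replicate 2 had 8 peaks at Kansl2 and replicate 1 had 4, and the 5 found in replicate 2 alone had folds from 3.61 to 5.91. A peak found in replicate 1 alone, downstream of the gene, had a fold of 6.19 and passed the filters.

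Hcfc1 encodes HCF-1, which is made as a long precursor and cleaved. Its site, chrX:73965587-73967891, had folds of 19.9 (44 fragments, interval 14.6 to 26.5) and 28.3 (85 fragments, 22.6 to 34.9). It was the only site and the only peak at the gene in either replicate, and its lower fold was higher than that of 94.2% of all sites. The summits lay 813 and 1099 bp upstream of the start and 286 bp from each other. That is above the median of 87.0 bp over all sites and under their 90th percentile of 639 bp. The 6 YY1 copies had the same orientation as the gene, began at offsets from -927 to 208, and were 184 to 308 bp apart. In the 10 bases on either side of the copies, 4 of 20 positions were identical in all 6. The copy farthest upstream was the nearest to the summits, at 110 and 176 bp. Peaks on chromosome X had lower folds in general, with filtered medians 0.850 and 0.800 times those of their libraries. Divided by these levels, the lower fold of Hcfc1 was 23.4. Division by the level of the gene's own chromosome also raised Phf20, from 18.6 to 19.5, and Wdr5, from 14.6 to 15.3. It lowered the remaining genes, among them Kansl1, from 16.8 to 14.6, and Kansl2, from 59.6 to 56.8. The part of the chromosome in these values was not tested.

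**Figure D2:**
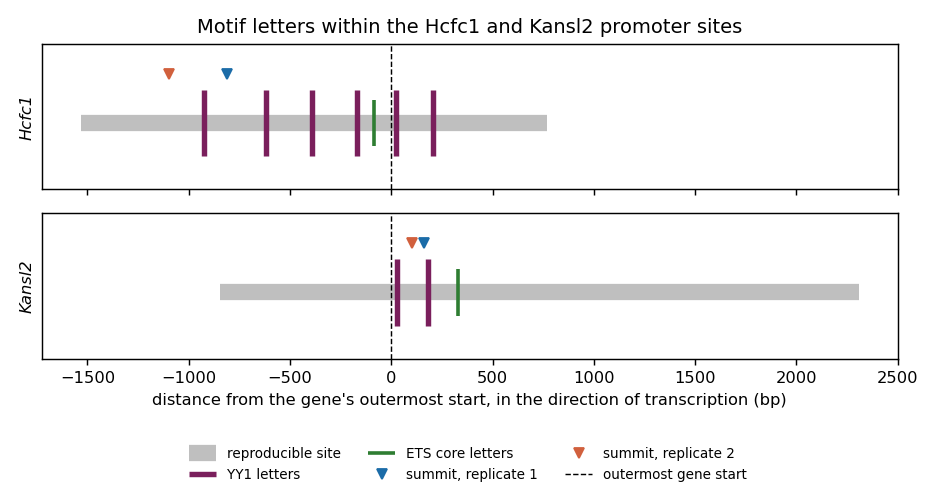
The Hcfc1 and Kansl2 promoter sites (grey bars) along the distance from the outermost start (bp), with the YY1 and ETS core letters as vertical marks and the summit of each replicate as a triangle. The Kansl2 summits lie between its 2 YY1 copies, and the Hcfc1 summits lie to either side of the copy farthest upstream.

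The YY1 letters were rare among Foxr2 sites. At least 1 copy was found in 691 of 11943 sites (5.79%, and 8.21% of promoter sites) and at least 2 in 29 (0.243%, and 0.359% of promoter sites), Kansl2 and Hcfc1 included. A single site had more copies than Hcfc1, with 8. The other 7 NSL complex genes had 0 copies over the length of their highest sites. Copies were counted over whole sites of unequal length, and the Kansl2 and Hcfc1 sites, 3155 and 2305 bp long, were longer than 89.3% and 72.7% of sites, with 0.634 and 2.60 copies per kb. Over all sites, those with the letters in the 200 bp around the mean of the 2 summits had a median lower fold of 9.72 and those without had 8.84, but among promoter sites both medians were 9.72. The letters were in that window at 2 of the 9 genes, beside 1.10% of all sites and 1.56% of promoter sites. At Hcfc1 the copy lay between the 2 summits, 110 and 176 bp from them. In the 200 bp around the centre of the site the letters were at 1 gene, Hcfc1, beside 1.29% of all sites and 1.75% of promoter sites. A match describes the letters and says nothing of the factor.

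**Figure D3:**
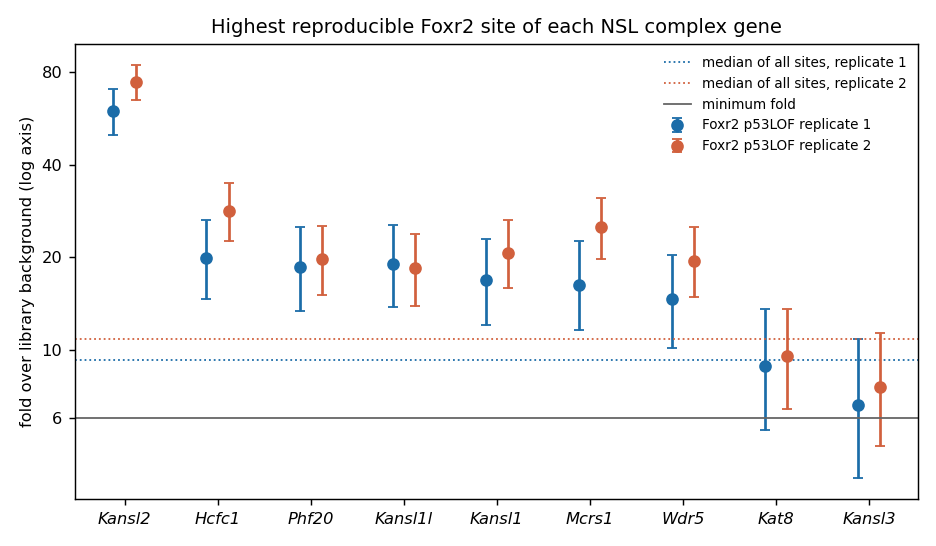
Fold of each gene's highest Foxr2 binding site (log axis) in Foxr2 p53LOF replicates 1 and 2, with 95% exact Poisson intervals as bars. Dotted lines mark the medians of all sites, 9.28 and 10.8, and only Kat8 and Kansl3 lie under them in both replicates.

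Kansl1 encodes a scaffold that binds the KAT8 enzyme and WDR5. It had 2 sites at its own starts. The higher lay at an internal start, chr11:104442291, within an intron of the longest form, and ran from chr11:104439211-104444098. Its folds were 16.8 (37 fragments, interval 12.0 to 23.0) and 20.7 (62 fragments, 15.9 to 26.4). The summits lay at -472 and -477 bp from that start, 5 bp from each other. At 4888 bp it was longer than 98.2% of sites. The site at the outer start, chr11:104468292-104470187, had folds of 10.6 (interval 6.88 to 15.7) and 9.53 (6.44 to 13.6), with summits 420 and 476 bp upstream of the GENCODE start at 104468861. RefSeq places the outer start farther out, at 104469443, and the summits, at 104469281 and 104469337, lay inside it. The internal start was higher than the outer in both replicates, with intervals that overlapped in replicate 1 and not in replicate 2. The RefSeq promoter of the internal start had 75.7% GC and 41 CpG, and that of the RefSeq outer start, printed above, had 63.7% and 15.

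Kansl1l, a paralog of Kansl1, had a single site at its start, chr1:66815390-66818795, with folds of 19.0 (42 fragments, interval 13.8 to 25.5) and 18.4 (55 fragments, 13.9 to 23.8). It was the only one of the 9 genes whose highest site was not higher in replicate 2. The median ratio of replicate 2 to replicate 1 was 1.16 over all sites, and 75.1% were higher in replicate 2, so the order of the replicates at the other 8 genes is that of most sites. The RefSeq promoter at this start had 76.7% GC and 40 CpG, the highest GC of the 13. The other RefSeq start of Kansl1l, with 44.0% GC and 1 CpG, had no site and was the only one without a peak in both replicates apart from that of Kansl3.

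Kansl3 encodes a subunit with an α/β hydrolase fold. It had the lowest site of the 9, chr1:36367867-36369114, with folds of 6.63 (14 fragments, interval 3.82 to 10.8) and 7.56 (22 fragments, 4.86 to 11.3). Only 11.5% of all sites had a lower value. A fold over 6 needs 13 fragments in replicate 1 and 18 in replicate 2, so the Kansl3 site passed by 1 fragment in replicate 1. The summits, 171 and 96 bp inside a start, lay in an intron and in the untranslated part of exon 1. The stretch shared by the replicates ended inside the outermost start at 36369181, because the replicate 1 peak ended there, and did not reach the upstream bases shown above.

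Kat8, the acetyltransferase, had a low site as well, chr7:127911894-127913214, with folds of 8.84 (19 fragments, interval 5.50 to 13.6) and 9.53 (28 fragments, 6.44 to 13.6). Its summits lay 208 and 119 bp inside the start in the coding part of exon 1, and 46.3% of sites had a lower value. The Kat8 region held 2 further sites at the starts of neighbouring genes. The site at Bckdk, which encodes the kinase of branched-chain keto acid dehydrogenase, chr7:127903761-127904311, had folds of 7.95 and 9.53. The site at Prss36, a serine protease gene, chr7:127934846-127936292, had 7.95 and 7.23 and crossed the edge of the region. The intervals of the Kat8 and Bckdk sites overlapped in both replicates, so the promoter of the enzyme was not separated from that of its neighbour.

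Mcrs1 encodes a forkhead-associated domain protein. Its promoter site, chr15:99250754-99253848, had folds of 16.3 (36 fragments, interval 11.6 to 22.5) and 25.0 (75 fragments, 19.7 to 31.2), a ratio of 1.53. The summits lay 436 and 371 bp upstream of the start, and the noncoding genes 1700120C14Rik and Gm49458 also start within 1 kb of the site. A lower site 7830 and 7714 bp upstream, chr15:99259300-99260585, had folds of 10.2 and 8.21. Unlike the promoter site, it was higher in replicate 1. The promoter site, longer than 88.6% of sites, held 3 ETS cores (0.969 per kb), at 325 to 446 bp from the summits. That many were found in 2.00% of all sites and 2.88% of promoter sites. At least 1 was found at 5 of the 9 genes (Kat8, Kansl2, Mcrs1, Wdr5 and Hcfc1), beside 29.2% of all sites and 38.6% of promoter sites, again over whole sites of unequal length.

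Phf20 encodes a reader with Tudor domains and a PHD finger. The promoter site, chr2:156196143-156198139, had folds of 18.6 (41 fragments, interval 13.4 to 25.0) and 19.7 (59 fragments, 15.1 to 25.3), with summits 248 and 294 bp inside a start, in an intron. A second intronic site, chr2:156202163-156203596, had folds of 7.95 and 14.1, the widest ratio between replicates of the 16 sites, at 1.78. Between them, intronic peaks with folds of 5.74 and 6.57 fell just outside the minimum, since only replicate 2 exceeded 6.

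Wdr5 encodes the WD40 subunit shared with the methyltransferase complexes. Its promoter site, chr2:27514577-27516460, had folds of 14.6 (32 fragments, interval 10.1 to 20.4) and 19.4 (58 fragments, 14.8 to 25.0). The summits lay 190 and 201 bp upstream of the start, 11 bp from each other, and 103 and 92 bp from the ETS core printed above. A site downstream of the gene, chr2:27539011-27541145, had folds of 6.19 and 8.54. With 13 fragments in replicate 1 it stood exactly at the minimum, and the noncoding genes Gm13421 and Gm25541 start within 1 kb of it.

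In order of fold, few neighbours were separated by more than counting error. Kansl2 is left out of this comparison, because the genes were selected on its site. Among the other 8, the intervals of every neighbouring pair overlapped in replicate 1, and in replicate 2 only those of Kansl1l and Kat8, at 18.4 and 9.53, did not. The order within the middle group changed between replicates, with Mcrs1 under Phf20 in replicate 1 (16.3 and 18.6) and above it in replicate 2 (25.0 and 19.7). The median lower fold of the 9 highest sites was 16.8, beside 10.6 for the 10978 protein-coding genes with a site. This median and the count that follows include Kansl2, on whose site the genes were selected. The 9 promoter sites were not alike in strength, since 7 exceeded the median of promoter sites, 9.72, and Kansl3 and Kat8 did not.

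**Figure D4:**
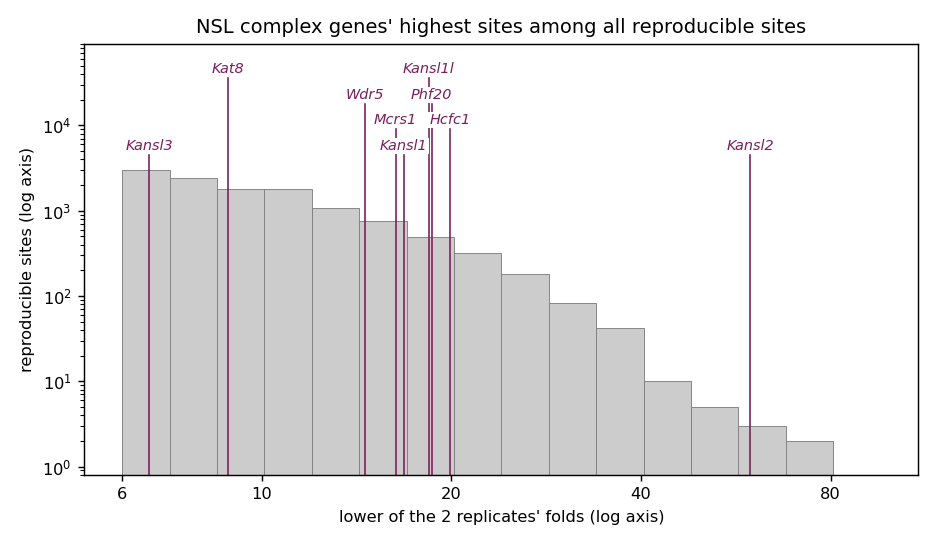
Number of reproducible Foxr2 sites (log axis) by the lower of the 2 replicates' folds (log axis), with vertical lines at the highest site of each NSL complex gene. Kansl2, at 59.6, lies in the sparse upper end, and the 6 genes from Wdr5 to Hcfc1 lie between 14.6 and 19.9.

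None of the motifs searched was present at all 9 genes in any 1 of the windows used. In the RefSeq promoters, which run from 250 bases before to 50 after each start, 9 short motifs were searched on both strands and the counts set beside all 32851 promoters. The GC box GGGCGG was present at 8 of the 9 genes, beside 35.7% of promoters, and CCAAT at 6, beside 37.4%. The ETS core was present at 3 (Kat8, Mcrs1 and Hcfc1), beside 8.86%, and AAGATGGCG at 2, beside 1.40%. The Hcfc1 ETS core shares 1 base with a GC box. The member promoters were rich in GC, with a median of 62.7% over 13 starts beside 52.7% for all promoters, and shares were not adjusted for this or for genes with several starts. The NRF1 letters GCGCATGCG, the THAP11 and ZNF143 core ACTACAATT, the E-box CACGTG, the forkhead core TGTTTAC and the CRE TGACGTCA were in none of the 9, beside 1.75%, 0.393%, 7.15%, 3.65% and 1.79%. In the 200 bp around the mean of the summits, the ETS core was at 0 of the 9 highest sites, beside 5.60% of all sites and 7.58% of promoter sites, and the forkhead core at 0, beside 1.93% and 1.49%. In the same window the GC box was at 6, beside 29.2% and 39.6%, and CCAAT at 0, beside 19.0% and 18.3%. Those 6 included Kansl3, the gene without a GC box in its RefSeq promoter. Apart from the YY1 letters given above, the other motifs were at 0 there. In the 200 bp around the centre of the site the counts differed. The E-box was at 2 (Kansl1 and Kansl1l), beside 5.15% of all sites and 5.70% of promoter sites. CCAAT was at 2 (Phf20 and Hcfc1), beside 21.4% and 20.8%. The GC box was at 5, beside 32.4% and 44.2%, and the ETS core at 1 (Kat8), beside 6.43% and 8.93%.

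Genes related to the complex were examined in the same way. In 4 lists, of partners of its subunits and of relatives of Kat8, 25 of 25 had a site within 1 kb of a start of their own, beside the 39.2% of all protein-coding genes given above. Among NSL and MSL partners, 5 of 5 had one, with a median lower fold of 7.88. Msl1, the MSL scaffold, was highest with folds of 22.1 and 28.9, and Msl3, a chromodomain subunit, was lowest with 6.63 and 8.54. Among the other MYST acetyltransferases, 4 of 4 had one, with a median of 21.3. Kat7 was highest at 36.7 and 45.7 and Kat6a lowest at 9.28 and 9.53. Kat8, at 8.84 and 9.53, was close to Kat6a and under the other 3 of its family in both replicates. The SET1 and MLL complexes had 11 of 11, with a median of 12.4, from Kmt2a at 7.95 and 14.8 to Kmt2d at 16.3 and 24.6, both H3K4 methyltransferases. The HCF-1 partners had 5 of 5, with a median of 16.8. Thap11, a zinc-finger factor that recruits HCF-1, was highest at 24.3 and 28.6, and Hcfc2, a paralog of Hcfc1, was lowest at 6.57 in replicate 2 and 7.51 in replicate 1. None of these lists held a site as high as that of Kansl2, but the 9 genes were selected on that site.

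**Figure D5:**
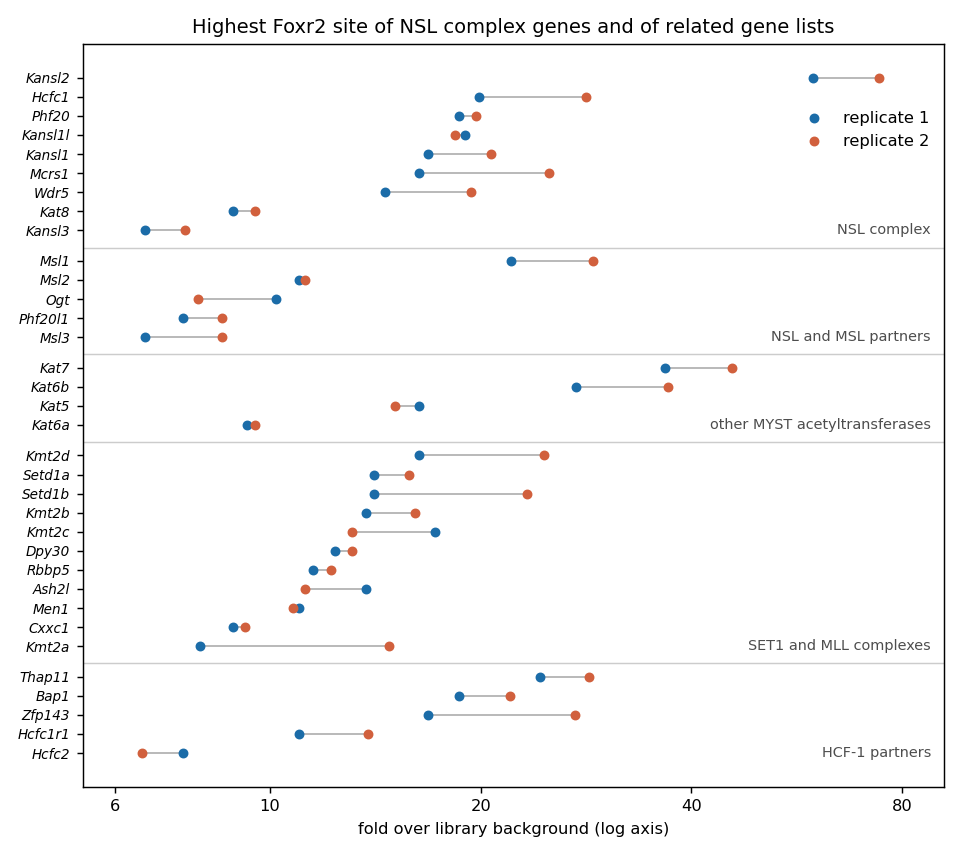
Fold (log axis) of the highest Foxr2 site in replicate 1 and replicate 2 for the 9 NSL complex genes and 25 genes of 4 related lists, with a line joining the replicates of each gene. Kansl2, on whose site the 9 genes were selected, is highest in both replicates, and Kat7 follows with 36.7 and 45.7.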

How the data were processed

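CUT&RUN peak lists of 2 Foxr2 p53LOF and 2 V5 control replicates were used, grouped by their labels. The authors trimmed reads (Trimmomatic 0.39), aligned them to mm10 (BWA 0.7.17), removed duplicates (Picard 2.26.6) and called peaks in each library (MACS2 2.2.7.1). The deposited fold (signalValue) is a ratio, and the authors' score and −log10 p and q were written by MACS2. Depth is not in the lists, so summit fragments were recovered from fold and p (background 1.26, 2.04, 1.69 and 0.643) and give the counting error.

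The following filters of the study's methods removed peaks: control overlap of at least 10 bp, −log10 q of 6 or less, fold of 6 or less, or length of at least 10000 bp. Overlaps of at least 1 bp between replicates gave 11947 sites. The study's further step, which kept sites in open chromatin of single-cell data, was not repeated here, so these sites are not the study's final set. Python 3.11.15, pandas 2.3.3, scipy 1.17.1 and pysam 0.24.0 were used, and the steps were tested on simulated data. The genes, lists, motifs and alternatives were chosen with earlier results of these data known. Named are the 9 genes, coding genes that start within 1 kb of their promoter sites (0 found), the highest and lowest gene of each list, and Foxr2. Bckdk, Prss36 and the noncoding genes were named after their values were seen. With 2 replicates per group, the smallest two-sided p of an exact permutation test is 0.333, and no test was run.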

Additional observations from a re-analysis of the deposited data

How the results depend on the processing

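Over 2 replicates of 1 line, the folds carry counting error and an unknown spread between cultures. All 9 genes kept a site in the gene region and at a promoter in every setting tried except a minimum fold of 10, which left 7, and a minimum −log10 q of 10, which left 8 (without Kansl3). The median lower fold of 16.8 ranged from 16.8 to 19.7 when a replicate was left out, with the highest value without Foxr2 p53LOF replicate 1, and was 15.6 after division by the chromosome level. Under the stricter minimums it was 18.4 over the 7 genes and 17.6 over the 8 that kept a site, and it was 16.8 in the other settings. Leaving out a Foxr2 p53LOF replicate replaces each lower fold by the value of the remaining replicate, so it says nothing of stability. With 50 kb on either side, the highest sites of Kat8 and Kansl3, then outside the 10 kb flanks, had lower folds of 14.5 and 12.4. The share of sites below the median gene was 89.8% among all sites and 86.8% among promoter sites. The ETS core was at 3 genes in RefSeq promoters and at 1 in the 200 bp around the site centre. No paired analysis was possible because the values come from no test and the groups are different lines that share only replicate numbers.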
